A study of Homo sapiens with 6 samples.

Results

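The genes that encode the proteasome and its regulators were examined in parental C4-2, an established human prostate cancer cell line of the LNCaP lineage, and in its enzalutamide-resistant derivative, labelled Enz-R. Enzalutamide is an inhibitor of the androgen receptor. Protein-coding genes were taken whose symbol starts with PSMA, PSMB, PSMC, PSMD, PSME, PSMF or PSMG, which gave 50 genes of the 59565 loci in the count table. RNA-seq libraries of total RNA were available for 3 parental and 3 Enz-R samples, with 15673404 to 28247038 counts each. No genotype, drug exposure at collection, clone or passage is given for either group, and no label says that the libraries came from separate cultures. The p-values therefore reflect library-to-library spread alone, and that spread may be technical. In bulk RNA, fewer cells that express a gene and less RNA per cell cannot be told apart.

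The proteasome degrades proteins tagged with ubiquitin. Its barrel-shaped core is built of rings of alpha subunits, which form the gate, and rings of beta subunits, of which PSMB5, PSMB6 and PSMB7 carry the proteolytic sites. The regulatory particle binds ubiquitin chains, removes them and unfolds the substrate with a ring of ATPases. Under interferon, PSMB8, PSMB9 and PSMB10 replace the constitutive catalytic subunits to form the immunoproteasome, and the activator of PSME1 and PSME2 caps the core, which changes the peptides offered to MHC class I.

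In Enz-R the proteasome genes did not move as a block. The interferon-inducible activator genes PSME1 and PSME2, all 4 core assembly chaperone genes (PSMG1 to PSMG4) and the immunoproteasome genes PSMB8 and PSMB9 were higher. Most of the called regulatory particle genes were lower, led by the lid gene PSMD7 and the ubiquitin-receptor gene PSMD2. With the quasi-likelihood test of edgeR, adjusted by Benjamini-Hochberg over 19029 tested genes, 31 of the 48 tested members passed an adjusted p of 0.05, a share of 64.6% beside 64.8% of all tested genes. Of these, 13 were higher (27.1%, beside 32.4% of all tested genes) and 18 lower (37.5%, beside 32.3%). Among protein-coding genes alone, 31.8% were called higher and 37.3% lower. These 31.8% and 37.3% are the background for each subgroup and list count below. The shares of members called were thus near the background. Called members of some subgroups all went 1 way, while others split, such as core beta with 2 higher and 2 lower. The subgroups are small, and a link of direction to subgroup was not tested. The median log2 fold change of Enz-R over parental was -0.06 over the 48 members, 0.01 over all tested genes and -0.05 over the tested protein-coding genes. The median size of the change, sign ignored, was 0.32 among members, 0.46 among all tested genes and 0.41 among the protein-coding ones.

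**Figure D1:**
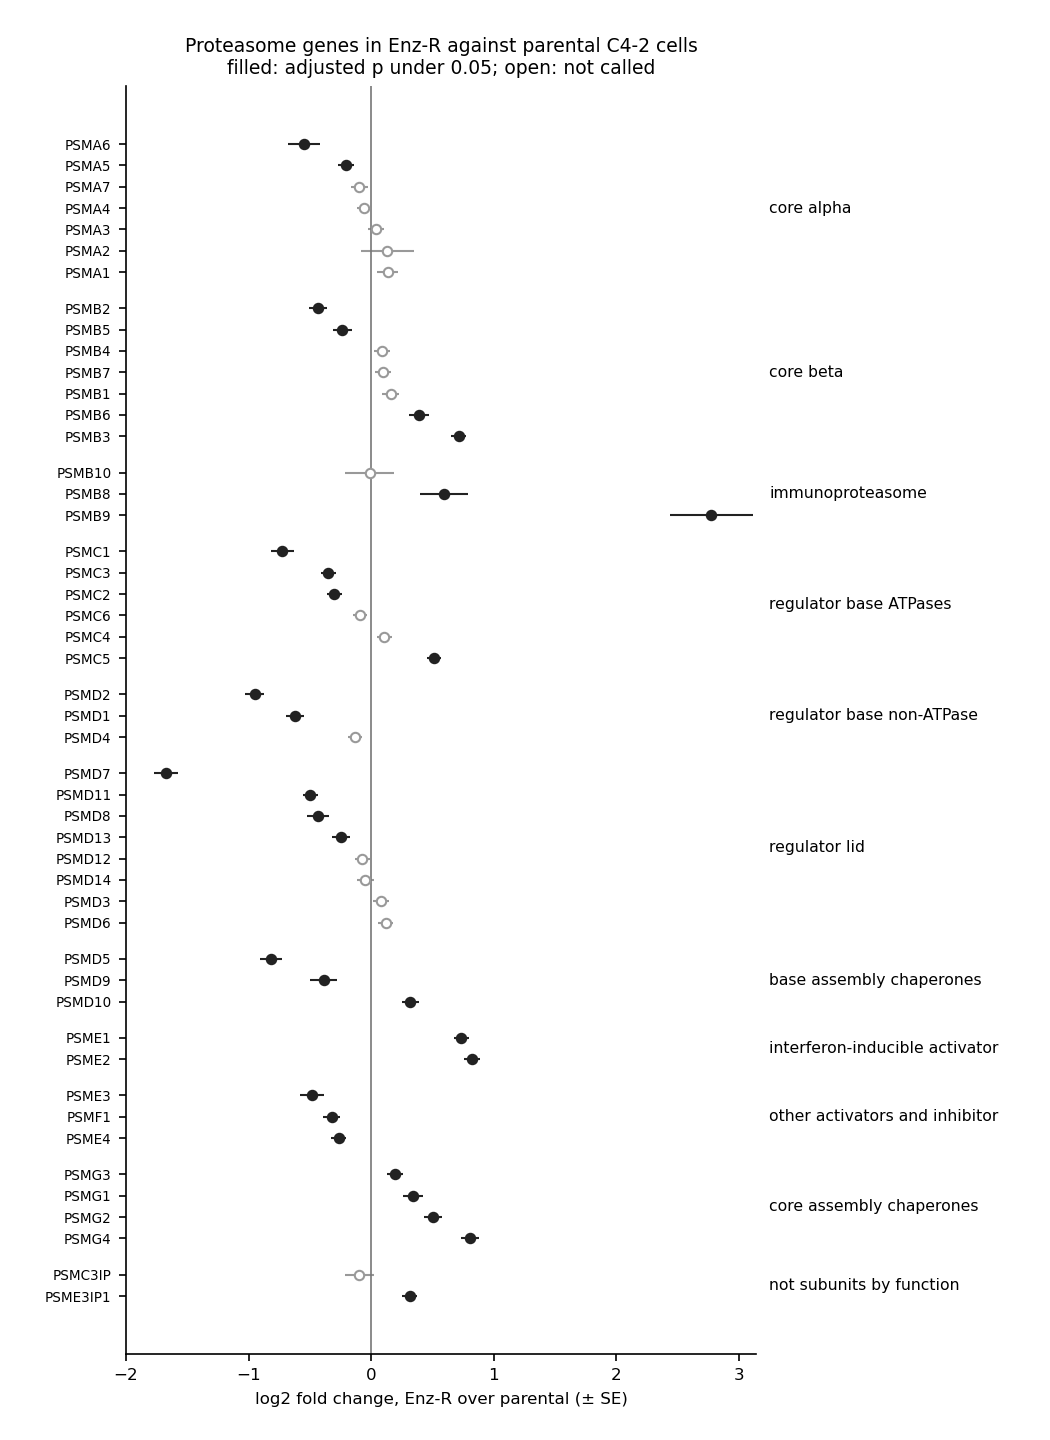
Log2 fold change of Enz-R over parental for the 48 tested proteasome genes, grouped by role, with points at the fitted value and bars of 1 SE. Filled points passed an adjusted p of 0.05. Every point of the core assembly chaperones and of the interferon-inducible activator lies right of 0, and PSMD7 and PSMB9 lie farthest out at -1.68 and 2.78.

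Levels in each library are given as CPM, the counts scaled to a common library size with edgeR's TMM factors. The members together summed to 4193, 4296 and 4311 CPM in the parental libraries and to 4181, 3950 and 3968 CPM in the Enz-R libraries. The highest Enz-R library thus lay just under the lowest parental one. The summed levels of the subgroups moved in opposite directions. The core beta genes summed to 858 ± 4.87 CPM in parental and 927 ± 43.0 CPM in Enz-R (SD, n = 3 each), while the 3 non-ATPase base genes summed to 605 ± 30.8 and 410.3 ± 13.5 CPM. The 8 lid genes summed to 841 ± 10.2 and 712 ± 35.6 CPM, and the 6 ATPase genes to 635 ± 5.07 and 607 ± 12.3 CPM. In each of these 4 sums the groups did not overlap. The 7 core alpha genes summed to 600.3 ± 18.6 and 568 ± 15.9 CPM, with overlapping groups. With scaling by library totals only, the median log2 fold change of all tested genes moved from 0.01 to -0.08, and that of the members from -0.06 to -0.15. Mitochondrially encoded genes held 8.78% to 11.3% of the counts in the parental libraries and 14.5% to 15.5% in Enz-R. With those genes left out, every called member kept its call and direction, and PSMD4 was called lower as well.

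**Figure D2:**
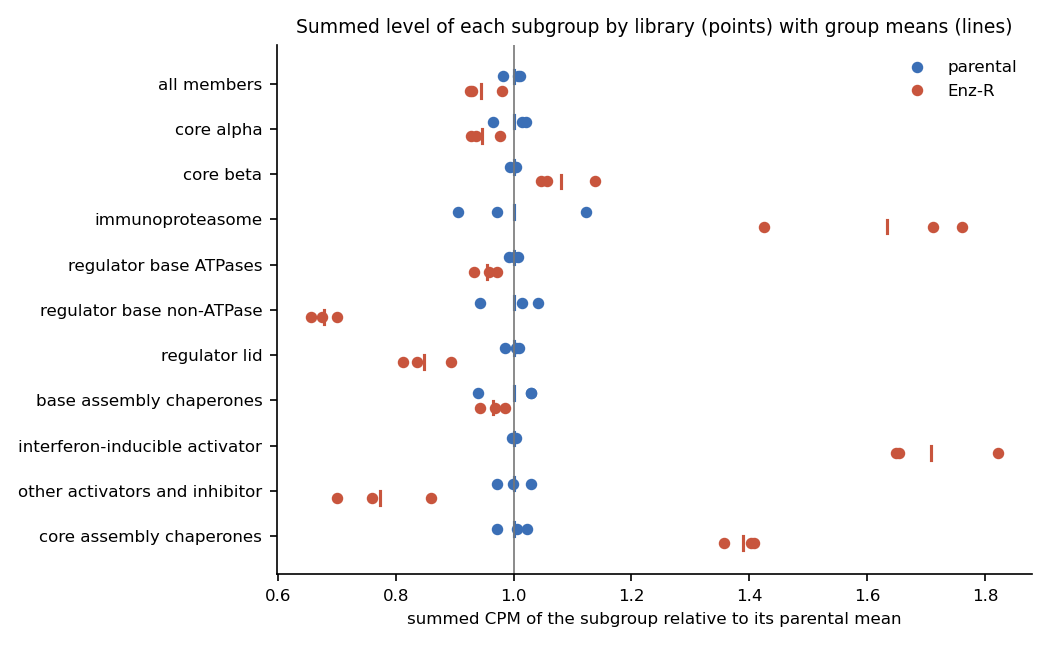
Summed CPM of each subgroup in each library, divided by the subgroup's parental mean, with points for the 3 parental and 3 Enz-R libraries and lines for the group means. The interferon-inducible activator, the immunoproteasome and the core assembly chaperones lie right of the parental values, and the non-ATPase base, the lid and the other activators lie left of them.

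The immunoproteasome genes were low in both lines. PSMB9 (ENSG00000240065, chromosome 6, 32844136 to 32859585 on GRCh38), whose subunit replaces PSMB6, stood at 0.244, 0.200 and 0.488 CPM in the parental libraries and at 1.69, 2.18 and 2.59 CPM in Enz-R. All Enz-R libraries lay above all parental ones. PSMB9 had a log2 fold change of 2.78 ± 0.34 (SE; adjusted p = 4.04e-06), from 21 counts over the parental group to 114 over Enz-R. All 3 parental values are so low that PSMB9 passed the count filter only through Enz-R, the group where it is high. Over the 14 alternatives that tested it, 1 of them with no filter, its log2 fold change ranged from 2.58 to 3.19 and its largest adjusted p was 9.61e-05. PSMB8 (chromosome 6, 32840717 to 32844703), which replaces PSMB5, stood at 1.74, 1.55 and 1.66 CPM in parental and at 2.38, 2.65 and 2.52 CPM in Enz-R. The groups did not overlap, and the log2 fold change was 0.60 ± 0.20 (adjusted p = 0.0153). The PSMB8 call was lost with DESeq2 (0.59, adjusted p = 0.110) and without parental replicate 2 (0.55, adjusted p = 0.0534). PSMB10 (chromosome 16, 67934502 to 67937087), which replaces PSMB7, stood at 2.16, 2.10 and 2.64 CPM in parental and at 2.01, 2.47 and 2.39 CPM in Enz-R. Its groups overlapped, and its log2 fold change was -0.01 ± 0.20 (adjusted p = 0.968).

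Each immunoproteasome subunit was also set against the constitutive subunit that it replaces, per kilobase of the principal GENCODE transcript within each library. The level of PSMB9 was 0.458%, 0.360% and 0.923% of that of PSMB6 in the parental libraries and 2.10%, 3.15% and 4.15% in Enz-R. The level of PSMB8 was 2.17% ± 0.245 of that of PSMB5 in parental and 3.92% ± 0.539 in Enz-R (SD, n = 3 each), and the groups did not overlap for either ratio. For PSMB10 against PSMB7 the ratio was 1.67% ± 0.247 and 1.56% ± 0.252, with overlapping groups. Exact 2-sided permutation tests over the 6 libraries gave p = 0.1 for PSMB9 and for PSMB8, the smallest value that 3 against 3 allows, and p = 0.7 for PSMB10. Adjusted over the 3 ratios these were 0.15, 0.15 and 0.7. In both lines the constitutive genes were the more abundant by far, and the highest ratio in any library was 4.26%, for PSMB8 in an Enz-R library.

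The interferon-inducible activator genes rose at higher levels. PSME1 (ENSG00000092010, chromosome 14, 24136158 to 24138967) stood at 65.3, 62.1 and 63.9 CPM in parental and at 102, 103 and 114 CPM in Enz-R, a log2 fold change of 0.74 ± 0.06 (adjusted p = 9.4e-08). PSME2 (ENSG00000100911, chromosome 14, 24143362 to 24147570), its partner in the activator ring, stood at 42.0, 45.5 and 44.1 CPM in parental and at 76.1, 74.4 and 81.7 CPM in Enz-R (0.82 ± 0.06, adjusted p = 3.5e-08). For both genes every Enz-R library lay above every parental one. The other cap genes went the other way. PSME3, which encodes the nuclear activator, was lower (-0.48 ± 0.10), as were PSME4, an activator linked to histone degradation (-0.27 ± 0.06), and PSMF1, an inhibitor of the core in vitro (-0.32 ± 0.07). PSME4 was no longer called once GC content and length were regressed out (-0.0051, adjusted p = 0.944).

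**Figure D3:**
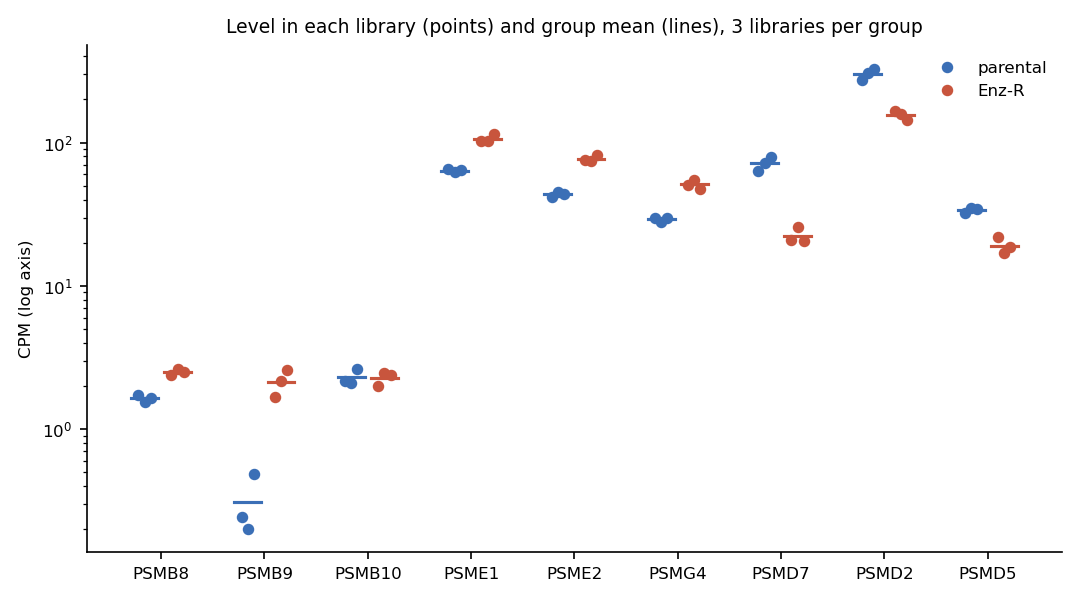
CPM on a log axis in each of the 3 parental and 3 Enz-R libraries (points) with group means (lines) for the immunoproteasome genes, the activator genes PSME1 and PSME2, PSMG4 and the 3 members with the largest falls. PSMB8, PSMB9 and PSMB10 all lie under 3 CPM, and the groups overlap only for PSMB10.

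Markers of immune cells, which carry the immunoproteasome without stimulation, were checked beside these values. Of 9 immune markers, 2 passed the count filter, of which 1 was called lower and none higher. CSF1R stood at 3.13 ± 0.884 CPM in parental and 2.88 ± 0.665 CPM in Enz-R and was not called. The pan-leukocyte gene PTPRC had 2 counts in all parental and 6 in all Enz-R libraries, CD3E had 1 and 2, TYROBP had 2 and 4, and CD2 was at 0 in every library. The whole list summed to 5.36 to 7.56 CPM in parental and 3.82 to 5.25 CPM in Enz-R, so it was not higher where PSMB9 was. The fibroblast list of 5 summed to 59.8 to 63.1 and 49.2 to 58.3 CPM, nearly all of it COL1A1, with DCN and LUM at no more than 4 counts in a group. The prostate luminal list of 7 was present throughout, with KLK3 between 4606 and 5056 CPM in parental and between 2478 and 2603 CPM in Enz-R.

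Genes that carry interferon signals to the immunoproteasome were 5 of 10 higher, 1 lower and 4 not called, with a median log2 fold change of 0.18. Of the 5, the kinase genes JAK1 (0.26 ± 0.11, adjusted p = 0.0426) and JAK2 (0.24 ± 0.10, adjusted p = 0.0428) lost their calls in 7 and 8 of the 15 alternatives. Without parental replicate 1 neither was called (adjusted p = 0.220 and 0.237), which leaves 3 of 10 higher. That is near the share of all tested protein-coding genes, of which 31.8% were called higher and 37.3% lower. NLRC5, the transactivator of MHC class I genes, rose from 1.71, 1.70 and 1.61 CPM to 11.8, 11.6 and 13.2 CPM (2.86 ± 0.15, adjusted p = 2.95e-10). IRF1, the transcription factor through which interferon gamma induces immunoproteasome genes, rose from 2.83 ± 0.661 to 9.04 ± 1.14 CPM (1.64 ± 0.17), and IRF9 from 0.932 ± 0.311 to 2.11 ± 0.171 CPM (1.15 ± 0.26). The receptor genes IFNGR1 (0.07 ± 0.08, adjusted p = 0.430) and IFNGR2 (0.12 ± 0.08, adjusted p = 0.214) were not called. Among 11 genes that handle peptides after the proteasome, 4 were higher and 4 lower, with a median of -0.03. The light chain of MHC class I, B2M (1.06 ± 0.06), and the peptide transporter genes TAP2 (0.59 ± 0.14) and TAP1 (0.38 ± 0.09) rose, and the trimming peptidase genes ERAP1 (-1.15 ± 0.12), NPEPPS (-0.34 ± 0.06) and LAP3 (-0.25 ± 0.08) fell. The LAP3 call was lost in 1 of 15 alternatives.

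Promoter windows from RefSeq (GRCh38.p14, from 250 bases before to 50 after a start, with 1 or more starts per gene) were found for 44 of the 50 members. PSMA7, PSMB1, PSMB6, PSMB7, PSMD4 and PSMG3 were not matched. The core of the interferon-stimulated response element (ISRE), a pair of GAAA repeats with 2 bases between them, was searched on both strands and occurred in 7 members, PSMA4, PSMB4, PSMB8, PSMB10, PSME1, PSME2 and PSMG4, or 15.9% of those matched beside 643 of 15317 protein-coding genes, or 4.2%. In 5 of the 7 the letters were GAAAGCGAAA, which occurred in 27 of the 15317 genes (0.176%). The 30 bases around these 5 sites are shown because 4 of the 5 genes rose in Enz-R. Each is read 5′ to 3′ along the strand that holds the motif, with the motif in capitals.
PSMB8, chr6:32844032-32844061, plus strand: aggaggaagtGAAAGCGAAAgccacagatc
PSMB10, chr16:67936852-67936881, minus strand: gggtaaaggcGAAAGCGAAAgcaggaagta
PSME1, chr14:24136189-24136218, minus strand: accgcgaaggGAAAGCGAAAgcggtagggc
PSME2, chr14:24146619-24146648, minus strand: cctggggagtGAAAGCGAAAgcccgggcga
PSMG4, chr6:3258904-3258933, plus strand: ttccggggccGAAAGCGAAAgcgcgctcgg
Counted from the transcript start, the motif begins at position -4 in PSMB8, -21 in PSMB10, 6 in PSME1, -28 in PSME2 and -33 in PSMG4. PSMB8, PSME1, PSME2 and PSMG4 rose, and PSMB10 was not called, although it has the same 10 letters. The exact form was searched after the data were seen. Over all 25 tested genes that hold it, 10 were higher and 8 lower, beside 31.8% and 37.3% of tested protein-coding genes, so genes with these letters changed in both directions. None of the ISRE core sites in members overlapped another motif searched. The match is of letters and shows no binding.

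No ISRE core lay in the window of PSMB9, which rose at low counts. TAP1, its neighbour on the opposite strand, holds GAAAGCGAAA in its own window. The 250 bases before the start of PSMB9 are shown with a CCAAT box and, on the opposite strand, a TGACNNNGC match in capitals.
PSMB9, chr6:32853942-32854191, plus strand: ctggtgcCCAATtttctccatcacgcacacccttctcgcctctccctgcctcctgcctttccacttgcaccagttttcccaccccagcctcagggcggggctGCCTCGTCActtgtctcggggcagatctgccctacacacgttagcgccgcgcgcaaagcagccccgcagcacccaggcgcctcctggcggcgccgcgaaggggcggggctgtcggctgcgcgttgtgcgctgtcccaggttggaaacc

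Of the 7 core alpha genes, 2 were lower, none higher and 5 not called, with a median log2 fold change of -0.06 and a range of -0.55 to 0.14. PSMA6 stood at 12.2 ± 0.258 CPM in parental and 8.44 ± 1.58 CPM in Enz-R (-0.55 ± 0.13, adjusted p = 0.00198), and PSMA5 at 111 ± 3.22 and 96.4 ± 6.42 CPM (-0.21 ± 0.06, adjusted p = 0.0104). The PSMA5 call was lost without Enz-R replicate 3 (-0.15, adjusted p = 0.0602) and with GC content and length regressed out (-0.079, adjusted p = 0.291). PSMA3 (0.04 ± 0.07), PSMA4 (-0.06 ± 0.06), PSMA7 (-0.10 ± 0.07), PSMA1 (0.14 ± 0.09) and PSMA2 (0.13 ± 0.21) were not called. PSMA7 was called lower without parental replicate 1 (-0.17, adjusted p = 0.0441) and with GC content and length regressed out (-0.34, adjusted p = 0.00111). With library totals only, PSMA4 (-0.16) and PSMA7 (-0.19) were called lower too, which makes 4 of 7. PSMA8, the testis form of an alpha subunit, and PSMB11, the thymus form of a catalytic subunit, had 1 count each over all 6 libraries and were not tested. The 0 counts of PSMA8 in the parental group allow a level of up to 0.0434 CPM, and the 0 counts of PSMB11 in Enz-R one of up to 0.0552 CPM, for counting error only.

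The core beta genes split, with 2 of 7 higher, 2 lower and 3 not called, and a median of 0.10. PSMB3, a structural beta subunit, stood at 83.6, 95.2 and 91.1 CPM in parental and at 145, 145 and 153 CPM in Enz-R (0.71 ± 0.06, adjusted p = 1.35e-07). No parental library came near the Enz-R values. The catalytic genes went 3 ways. PSMB6, with the caspase-like site, rose from 58.7 ± 1.58 to 76.9 ± 9.91 CPM (0.39 ± 0.08, adjusted p = 0.000532), and PSMB5, with the chymotrypsin-like site that proteasome inhibitors such as bortezomib bind, fell from 88.0 ± 6.02 to 74.6 ± 7.36 CPM (-0.23 ± 0.08, adjusted p = 0.0138). PSMB7, with the trypsin-like site, stood at 111 ± 3.86 and 119 ± 7.73 CPM and was not called (0.10 ± 0.06, adjusted p = 0.187). The PSMB5 groups overlapped, and its call was lost without parental replicate 3 (adjusted p = 0.0616), Enz-R replicate 2 (0.0689) or Enz-R replicate 3 (0.0637). The PSMB6 call was lost with GC content and length regressed out (0.16, adjusted p = 0.0976). PSMB2 fell from 125 ± 5.21 to 92.2 ± 9.53 CPM (-0.43 ± 0.07, adjusted p = 9.12e-05), and PSMB1 (0.16 ± 0.07, adjusted p = 0.0573) and PSMB4 (0.09 ± 0.06, adjusted p = 0.233) were not called.

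Within the assembled core each alpha and beta subunit is present in equal number, but transcript levels per kilobase differed. The length used was that of the annotated principal transcript, from 773 bases for PSMB3 to 4411 for PSMA4. The isoform in use was not measured, so the order of the genes depends in part on that choice. Per kilobase of transcript, 11 of the 14 constitutive core genes lay between 29.8 (PSMA5) and 253 (PSMB4) CPM in the parental group. The other 3, PSMA2 at 2.53, PSMA6 at 11.9 and PSMA1 at 15.3 CPM per kilobase, were the lowest of the 14 in both lines. These 3 are also the core genes with over 10% of their exon bases inside another gene on the same strand, namely 24.7% for PSMA1, 14.6% for PSMA2 and 14.1% for PSMA6. The same held for PSMB10, with 34.8%, and for PSMD9, with 19.9%, which stood at 1.89 and 4.24 CPM per kilobase in parental. Reads in shared bases can be assigned to either gene or to none, so the levels of these 5 genes are uncertain. The part of shared bases in those low levels was not tested.

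**Figure D4:**
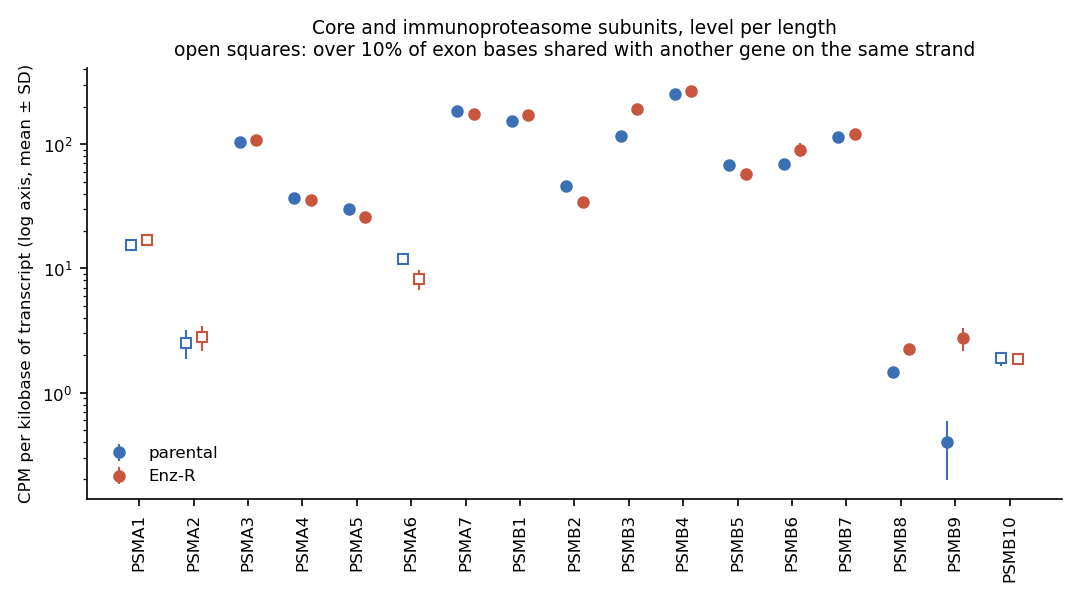
CPM per kilobase of the principal transcript, on a log axis, as mean ± SD of 3 libraries in parental and Enz-R for the core and immunoproteasome genes. Open squares mark genes with over 10% of exon bases shared with another gene on the same strand. PSMA1, PSMA2 and PSMA6 lie under the other constitutive genes, and PSMB8, PSMB9 and PSMB10 lie under 3.

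Among the base and lid genes with a PSM symbol, those called were lower except for PSMC5. Among 8 lid genes 4 were lower and none higher, with a median of -0.16, and among the 3 non-ATPase base genes 2 were lower. Of all tested protein-coding genes, 37.3% were called lower and 31.8% higher. PSMD7 (ENSG00000103035, chromosome 16, 74296775 to 74306288), the partner of the deubiquitinase PSMD14 in the lid, had the largest fall of any member. It stood at 63.2, 72.5 and 79.2 CPM in parental and at 20.9, 25.8 and 20.4 CPM in Enz-R, with a log2 fold change of -1.68 ± 0.10 (adjusted p = 1.42e-09). The lowest parental library was above the highest Enz-R one by a wide margin. PSMD14 itself stood at 68.3 ± 1.33 and 65.9 ± 5.66 CPM and was not called (-0.05 ± 0.07, adjusted p = 0.546). The processed pseudogene PSMD7P1, which can take reads of PSMD7, was also lower, with 99 counts over parental and 9 over Enz-R. An unnamed transcript on the opposite strand covers 30.7% of the PSMD7 exon bases, and its level was 7.12 ± 0.517 and 7.21 ± 0.751 CPM. Since no source states that the kit keeps strand, reads of the pair cannot be told apart there.

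PSMD2 (ENSG00000175166, chromosome 3, 184298709 to 184309054), a large scaffold and ubiquitin-receptor subunit of the base, stood at 274, 305 and 329 CPM in parental and at 167, 159 and 143 CPM in Enz-R (-0.95 ± 0.08, adjusted p = 4.48e-08). The groups did not overlap. PSMD1, the other large scaffold of the base, fell from 85.5 ± 6.03 to 55.4 ± 3.80 CPM (-0.62 ± 0.07, adjusted p = 2.04e-06). The ubiquitin receptor PSMD4 was not called (-0.13 ± 0.06, adjusted p = 0.0567), but was called lower under 5 of the 15 alternatives. In the lid, PSMD11 (-0.49 ± 0.06), PSMD8 (-0.43 ± 0.09) and PSMD13 (-0.25 ± 0.07) fell, the last not without Enz-R replicate 2 (-0.20, adjusted p = 0.0535). PSMD12 (-0.07 ± 0.06), PSMD3 (0.08 ± 0.07) and PSMD6 (0.12 ± 0.06) were not called. PSMD6 was called higher with at least 50 counts in 3 libraries (0.15, adjusted p = 0.0378) and with GC content and length regressed out (0.30, adjusted p = 0.000504).

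The ATPases that form the unfolding ring were 3 of 6 lower, 1 higher and 2 not called. PSMC1 fell from 63.4 ± 1.08 to 38.4 ± 6.70 CPM (-0.73 ± 0.09, adjusted p = 6.32e-06), PSMC3 from 144 ± 9.03 to 113 ± 2.00 CPM (-0.35 ± 0.06) and PSMC2 from 129 ± 3.22 to 105 ± 7.11 CPM (-0.30 ± 0.06). PSMC5 rose, from 116, 114 and 117 CPM to 165, 158 and 172 CPM (0.51 ± 0.06, adjusted p = 1.94e-06), with no overlap of the groups. Opposite-strand neighbours share exon bases with both ends of this range. NRDE2 covers 75.8% of the annotated exon bases of PSMC1 and stood at 0.18 ± 0.09 (adjusted p = 0.0780), and FTSJ3 covers 19.5% of those of PSMC5 and stood at -0.16 ± 0.06. PSMC4 (0.11 ± 0.06) and PSMC6 (-0.09 ± 0.06) were not called.

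All 4 chaperone genes of the core were higher, with a median of 0.42, while of the 3 chaperone genes of the base PSMD5 and PSMD9 were lower and PSMD10 higher. PSMG4 (ENSG00000180822, chromosome 6, 3231403 to 3303373) stood at 29.8, 28.0 and 29.9 CPM in parental and at 50.8, 55.1 and 47.8 CPM in Enz-R (0.81 ± 0.07, adjusted p = 1.14e-07). Every Enz-R library lay above the parental ones. Its partner in alpha-ring assembly, PSMG3, had a smaller difference, 36.2 ± 0.722 against 41.5 ± 1.72 CPM (0.19 ± 0.07, adjusted p = 0.0160). The PSMG3 call was lost in 5 of 15 alternatives, with a value of -0.081 (adjusted p = 0.288) when GC content and length were regressed out. PSMG1 (0.34 ± 0.08) and PSMG2 (0.50 ± 0.07), which form the other chaperone pair, rose. Outside the symbol rule, POMP, the maturation factor of the core, rose from 105, 113 and 112 CPM to 190, 151 and 160 CPM (0.60 ± 0.08, adjusted p = 7.12e-06). PAAF1, a further chaperone of the base, was higher as well (0.29 ± 0.07, adjusted p = 0.00244), so the base chaperones went both ways. It was named after its value was seen.

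PSMD5, which holds the ATPase PSMC2 before the base is built, stood at 32.5, 35.1 and 34.5 CPM in parental and at 21.8, 17.0 and 18.6 CPM in Enz-R (-0.82 ± 0.09, adjusted p = 1.11e-06). The groups were well apart. PSMD9 fell from 11.8 ± 0.555 to 9.07 ± 0.779 CPM (-0.39 ± 0.11), and PSMD10, known as gankyrin, rose from 57.3 ± 4.62 to 71.4 ± 0.174 CPM (0.32 ± 0.07, adjusted p = 0.000733). The symbol rule also took in 2 genes that encode no subunit, PSMC3IP, a meiotic recombination factor (-0.10 ± 0.12, not called), and PSME3IP1, which binds the PSME3 protein (0.31 ± 0.06, higher).

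Partners that lack a PSM symbol also divided, with 4 of 12 higher, 5 lower and 3 not called, and a median of 0.13. The background shares of tested protein-coding genes were 31.8% higher and 37.3% lower. SEM1, the smallest lid subunit, rose from 65.6 ± 5.97 to 109 ± 4.07 CPM (0.73 ± 0.07), opposite to the called lid genes, as did POMP and ZFAND5, a factor that stimulates the proteasome (0.52 ± 0.06). PITHD1 (-0.69 ± 0.06), the ubiquitin ligase gene UBE3C (-0.58 ± 0.06) and ECPAS (-0.57 ± 0.06), an adaptor of the assembled proteasome, fell. Of 5 shuttle factors, which carry ubiquitinated proteins to the proteasome, 3 fell: UBQLN4 (-0.69 ± 0.06), RAD23B (-0.69 ± 0.10) and UBQLN1 (-0.62 ± 0.07). Of 6 ubiquitin and activating enzyme genes 3 were higher and 1 lower. RPS27A, which encodes ubiquitin fused to a ribosomal protein, rose (0.92 ± 0.09). UBA6, an activating enzyme, was lower (-0.23 ± 0.07, adjusted p = 0.00688), but stood at 0.079 (adjusted p = 0.295) with GC content and length regressed out.

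Genes that control proteasome gene transcription were 4 of 5 lower and none higher, with a median of -0.80. Over all tested protein-coding genes 37.3% were called lower and 31.8% higher. NFE2L1, the transcription factor that raises proteasome gene expression when proteasome activity is short, fell from 213, 211 and 219 CPM to 101, 104 and 96.7 CPM (-1.09 ± 0.06, adjusted p = 5.95e-10). The groups lay far apart. DDI2, the protease that cleaves the NFE2L1 protein into its active form, fell from 101 ± 4.24 to 50.8 ± 3.37 CPM (-0.99 ± 0.07), and VCP, the segregase that extracts it from the endoplasmic reticulum, from 508 ± 31.4 to 292 ± 10.4 CPM (-0.80 ± 0.07). NFE2L2, the related antioxidant factor, fell by 0.65 ± 0.08 on the log2 scale, and was named after its value was seen. NGLY1, which removes glycans from the NFE2L1 protein, was not called (0.11 ± 0.07, adjusted p = 0.191).

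NFE2L1 and NFE2L2 both bind antioxidant response elements. The core TGANNNNGC, on either strand, occurred in 29 of the 44 member genes with windows (65.9%, beside 49.7% of all 15317 genes), and CCAAT in 22 of the 44 (beside 42.5%). The longer form TGACNNNGC, searched after the data were seen and contained in the first, occurred in 15 (34.1%, beside 18.0%). It occurred in 4 of 18 members that were called lower, 7 of 11 called higher and 4 of 13 not called. The sites of the 2 largest falls and the 2 largest rises that hold the longer form are shown, since both directions occur among them, each along the strand of the motif and with the motif in capitals.
PSMD5, chr9:120843037-120843066, minus strand: tggctacagtTGACACGGCcctaacggagg
PSMD1, chr2:231056887-231056916, plus strand: ggcggcctgaggaggcgacTGACTGAGCag
PSMB9, chr6:32854034-32854063, minus strand: cccgagacaagTGACGAGGCagccccgccc
PSME2, chr14:24146766-24146795, minus strand: ccctggactgTGACCCAGCcagcaccgcct
Over all 2107 tested genes that hold TGACNNNGC, 30.8% were called higher and 39.3% lower, close to the 31.8% and 37.3% of all tested protein-coding genes. In members, a TGANNNNGC site overlapped a CCAAT box at 3 places, in PSMA3, PSMA5 and PSME3IP1.

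The members lie on many chromosomes, and their changes were set beside those of their neighbours, taken as the tested protein-coding genes within 500000 bases. PSMD7 (-1.68) and PSMG4 (0.81) stood apart from neighbours with medians of -0.13 over 7 genes and -0.12 over 9 genes. PSMB3 (0.71) was close to the median of 0.73 over its 17 neighbours, and PSMG1 (0.34) lay below the 0.67 of its 6 neighbours. PSMF1 (-0.32) was lower amid neighbours with a median of 1.38 over 11 genes, and PSMD8 (-0.43) amid a median of 0.55 over 19 genes. PSMB2 (-0.43) lay among lowered neighbours, with a median of -0.69 over 15 genes. PSME1 and PSME2 share 31 neighbours each with a median of 0.26, which is below their own 0.74 and 0.82, and PSMB8 and PSMB9 lie in a stretch with a median of 0.36 over 24 genes. Across the 48 tested members the correlation between a gene and its neighbours was 0.24 by Pearson and 0.29 by Spearman, given as a description, since some members share neighbours. With the log2 length of the longest transcript the correlations were -0.20 and -0.34, and with its GC content 0.14 and 0.17, across the same 48 genes. With the log2 of the mean CPM they were -0.35 by Pearson and -0.17 by Spearman.

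**Figure D5:**
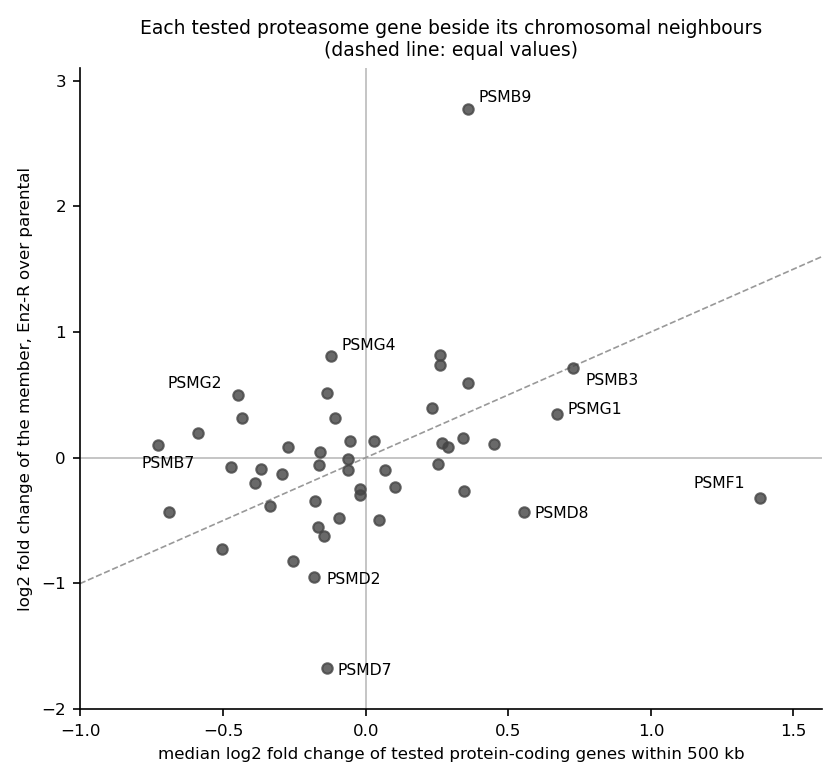
Log2 fold change of each of the 48 tested members (vertical axis) against the median log2 fold change of the tested protein-coding genes within 500000 bases (horizontal axis). On the dashed line both are equal. PSMB9 and PSMD7 lie far above and below it, PSMB3 on it, and PSMF1 far to the right of it.

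The libraries of the groups did not overlap for 35 of the 48 tested members, 15 higher and 20 lower, or 72.9% beside 68.9% of all tested genes (34.2% higher and 34.7% lower). Of the 31 called members, 24 kept their call and direction in every one of the 15 alternatives that could test them. These include PSMD7, PSMD2, PSMD1, PSMD5, PSMC1, PSMC5, PSMB3, PSME1, PSME2, PSMG4 and, in the 14 alternatives that tested it, PSMB9. Processed and other pseudogenes of these genes, 44 in the table, held 1003 counts over all libraries, or 0.195% of the 514535 counts of the members. Most of these were of PSMC1P1, with 200 counts in parental and 132 in Enz-R, PSMA6P1, with 149 and 88, and PSMD7P1.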

How the data were processed

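Libraries were made from total RNA with a NEBNext kit and read as 150 bp paired ends, per the labels' protocols. The submitters' processing notes name HISAT2 and GRCh38. Its version, the counting tool, the annotation and the strand setting are not given in sources used here. The deposited table holds raw counts per gene that the authors had not scaled. Of 59565 loci, 58676 had identifiers in GENCODE 29, which gave gene type and position, and current symbols came from a list of gene names. Unannotated loci, 889 in all, held 0.349% of counts and stayed in the fit. Replicates of a group differed by more than counting error, with a chi-square per degree of freedom of 3.91 to 8.98.

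The test was edgeR 4.0.16's quasi-likelihood fit (R 4.3.3; filterByExpr, TMM, no covariate) of Enz-R against parental on 19029 genes, with 0.05 as the threshold for Benjamini-Hochberg adjusted p. Each SE is the log2 fold change divided by the root of its F value. The biological coefficient of variation common to all genes was 7.20%. The members, lists and tests were chosen with earlier results of these data known. Values by library are given for the 3 largest rises and falls among called members with at least 5 CPM, for the immunoproteasome and activator genes, and for a few others named for their roles. Lists name up to 3 called genes in each direction, and a few list members are counted but not reported here by name. Levels per kilobase use the longest APPRIS principal transcript.

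Alternatives were DESeq2 size factors, library totals, 2 other count filters (none, and 50 counts in 3 libraries), DESeq2 1.42.0, limma-voom (limma 3.58.1), a replicate block, mitochondrially encoded genes left out, GC content and length regressed out by splines with 5 degrees of freedom (known for 96.3% of tested genes), and each library left out. On simulated data of 19029 genes for this comparison, changes were planted in 50 genes of each size. They were called in 30% of genes at 1.25-fold, 72% at 1.5-fold, 76% at 2-fold and 98% at 4-fold. There were 17 false calls among 18829 unchanged genes. In the real data 64.8% of tested genes were called. The adjusted p threshold is stricter where so few genes change, so these shares do not carry over to the real fit. Motif searches and figures used Python 3.11.15, pandas 2.3.3, numpy 2.4.6, scipy 1.17.1 and matplotlib 3.10.9. Protein sequences were not used here.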

Additional observations from a re-analysis of the deposited data

How the results depend on the processing

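Over the 15 alternatives 11 to 14 members were called higher and 16 to 23 lower, against 13 and 18, so neither total moved by more than 1.5 times. Counts within subgroups did: core alpha genes called lower went from 2 to 4 with library totals only and to 1 without Enz-R replicate 3, core beta genes called lower from 2 to 1 without parental replicate 3, Enz-R replicate 2 or Enz-R replicate 3, and core beta genes called higher from 2 to 1 with GC content and length regressed out. Immunoproteasome genes called higher went from 2 to 1 with DESeq2 and without parental replicate 2, and lid genes called higher from 0 to 1 with at least 50 counts in 3 libraries and with GC content and length regressed out. The count of 23 came with library totals only. Leaving out 1 library at a time gave 12 to 14 higher and 16 to 19 lower members. With GC content and length regressed out, PSMG3 stood at -0.081 (adjusted p = 0.288) and UBA6 at 0.079 (adjusted p = 0.295), both opposite in sign, and PSMA5, PSMB6 and PSME4 lost their calls. The cause was not tested. Of the 17 members not called, 7 were called under at least 1 alternative. With at least 50 counts in 3 libraries, PSMB8, PSMB9 and PSMB10 were not tested, and their low counts limit the precision of their values.

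Replicate numbers are shared by the groups, but the labels do not say that they mark a shared batch. Deviations from the group means correlated at 0.0493, -0.0081 and 0.0112 between same-numbered libraries, and parental replicates 2 and 3 correlated better with another number than with their own. With the replicate number as a block, 14 members were higher and 18 lower, and 12337 genes were called in all, against 12323.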
